A study of Mus musculus with 3 samples.

Results

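Metallothioneins and zinc transporters were followed in the liver cells of 3 mice through 6 genes: the metallothioneins Mt1 and Mt2, the exporters of the Slc30 family Slc30a1 and Slc30a10, and the importers of the Slc39 family Slc39a4 and Slc39a1. These are 6 of the 55421 genes in the deposited single-cell RNA-seq counts. They were taken up because their levels per cell class and library stood out in these same data, so the levels and ratios below are a description and carry no test. The study asked how liver sinusoidal endothelial cells respond to iron, and each of its 3 conditions was 1 wild-type mouse and 1 library. An iron-deficient diet was given to all 3 mice for 1 week. The mouse labelled IDD+HID then ate chow with 2% carbonyl iron for 18 h, the mouse labelled IDD+HTF received 10 mg holo-transferrin (iron-loaded transferrin) intravenously, and the mouse labelled IDD had the iron-deficient diet alone. The labels do not give the time between the holo-transferrin injection and collection, or the age and sex of the mice. Livers were digested with collagenase and pronase, and the hepatocytes were selected for viability. A suspension of 5% hepatocytes and 95% non-parenchymal cells was loaded for 10x 3' sequencing, so the shares of cell types do not describe the liver. They did not keep the loaded mixture either. Cells named hepatocyte-like made up 7.38% of the kept cells in IDD+HID, 32.2% in IDD+HTF and 18.6% in IDD. With 1 mouse per condition, a difference between conditions cannot be told apart from a difference between mice, digestions or libraries.

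Metallothioneins are small cysteine-rich proteins that bind zinc and copper in the cytosol. Free zinc activates the transcription factor MTF1, which binds metal response elements in the promoters of Mt1, Mt2 and Slc30a1; glucocorticoids, interleukin-6 and oxidative stress are also known to raise metallothionein transcription in liver. Slc30 proteins (ZnT) move metal out of the cytosol, across the plasma membrane or into vesicles, and Slc39 proteins (ZIP) move it in. Slc30a1 is the zinc exporter of the plasma membrane, Slc30a10 is best known as a manganese exporter of liver and intestine, Slc39a4 is the main intestinal zinc importer, and Slc39a1 is a broadly expressed zinc importer.

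The promoters of 5 of the 6 members were found in RefSeq's mouse annotation (build GRCm38.p6) and are shown because the metallothionein and Slc30a1 promoters are where MTF1 acts. Each window of 300 bases runs 5′ to 3′ along the gene, from 250 bases before RefSeq's annotated start through the first 50 bases of the gene. RefSeq's starts are not always those given in the next paragraph. The Mt2 window, for example, ends at 94172667, while the start given there is 94172664. Capitals mark matches to the core of the metal response element, searched as TGCACNC or TGCGCNC on both strands. The windows are chr8:94178839-94179138 for Mt1, chr8:94172368-94172667 for Mt2, chr1:191906531-191906830 for Slc30a1, chr1:185454598-185454897 for Slc30a10 and chr3:90247942-90248241 for Slc39a1, all on the plus strand.
Mt1: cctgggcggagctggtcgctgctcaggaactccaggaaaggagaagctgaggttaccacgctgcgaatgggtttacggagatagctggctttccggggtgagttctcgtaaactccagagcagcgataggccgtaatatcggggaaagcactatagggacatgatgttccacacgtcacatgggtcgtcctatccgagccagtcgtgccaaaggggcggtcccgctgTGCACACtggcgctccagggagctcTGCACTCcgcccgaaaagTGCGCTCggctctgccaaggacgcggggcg
Mt2: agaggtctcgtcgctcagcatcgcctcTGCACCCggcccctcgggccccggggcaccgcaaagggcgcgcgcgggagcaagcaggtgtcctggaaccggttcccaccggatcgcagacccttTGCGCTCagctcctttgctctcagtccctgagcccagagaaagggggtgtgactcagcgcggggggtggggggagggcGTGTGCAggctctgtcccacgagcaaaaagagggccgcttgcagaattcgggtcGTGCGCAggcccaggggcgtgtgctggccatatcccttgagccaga
Slc30a1: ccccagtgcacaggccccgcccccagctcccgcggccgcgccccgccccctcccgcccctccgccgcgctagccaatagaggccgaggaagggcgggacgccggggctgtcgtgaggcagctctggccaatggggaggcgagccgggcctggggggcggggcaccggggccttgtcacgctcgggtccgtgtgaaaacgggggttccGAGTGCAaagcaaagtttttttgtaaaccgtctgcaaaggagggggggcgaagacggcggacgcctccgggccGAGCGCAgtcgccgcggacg
Slc30a10: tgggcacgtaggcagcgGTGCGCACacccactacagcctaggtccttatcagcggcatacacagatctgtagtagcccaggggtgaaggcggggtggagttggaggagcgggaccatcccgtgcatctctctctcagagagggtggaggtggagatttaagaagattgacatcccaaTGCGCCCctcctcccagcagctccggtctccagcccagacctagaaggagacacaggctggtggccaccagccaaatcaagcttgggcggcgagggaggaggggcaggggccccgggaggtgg
Slc39a1: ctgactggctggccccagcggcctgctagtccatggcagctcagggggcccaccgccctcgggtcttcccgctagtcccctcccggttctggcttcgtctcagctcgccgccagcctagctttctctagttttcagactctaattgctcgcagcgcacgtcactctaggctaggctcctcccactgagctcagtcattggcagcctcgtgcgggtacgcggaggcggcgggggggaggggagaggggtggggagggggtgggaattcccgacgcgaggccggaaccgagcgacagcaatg
The Mt1 window held 3 matches, Mt2 4, Slc30a1 2, Slc30a10 3 and Slc39a1 0. A pair of the Slc30a10 matches lie on opposite strands and overlap, which is why its first run of capitals is longer. Among the 32851 promoter windows of the table, 25.7% held at least 1 match, 7.11% at least 2, 1.97% at least 3 and 0.517% at least 4. A match describes letters and is not evidence of binding.

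In the GRCm38 annotation of the files, Mt1 (ENSMUSG00000031765.8, chromosome 8, 94179082 to 94180327) and Mt2 (ENSMUSG00000031762.7, chromosome 8, 94172664 to 94173568) are neighbours on the plus strand. Slc30a1 (ENSMUSG00000037434.7) lies on chromosome 1 from 191906767 to 191913247 and Slc30a10 (ENSMUSG00000026614.7) on the same chromosome from 185454848 to 185468762, both on the plus strand. Slc39a4 (ENSMUSG00000063354.7) lies on chromosome 15 from 76612383 to 76617384 on the minus strand, and Slc39a1 (ENSMUSG00000052310.9) on chromosome 3 from 90248172 to 90253612 on the plus strand. Genes on the opposite strand overlap Mt2 by 749 bases, Slc30a1 by 761 bases and Slc30a10 by 721 bases. The sources used here do not say whether counting used strand, so reads from these overlaps are uncertain.

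The libraries held 75404660 UMIs (unique molecules counted) in IDD+HID, 55478904 in IDD+HTF and 34552858 in IDD. After filtering, 3538, 3203 and 1311 cells were kept, with medians of 8596, 4449 and 3639 UMIs per cell, so the IDD library was both the smallest and the shallowest. Each pair of libraries shared 1 cell barcode. Droplets of at most 100 UMIs, taken as a sample of RNA outside cells, made up 3.36% of IDD+HID UMIs, 3.94% of IDD+HTF UMIs and 10.9% of IDD UMIs. The cells fell into 25 clusters, of which 22 matched marker lists, and 6 of the 15 named classes held at least 50 cells in every library: liver sinusoidal endothelial cell (LSEC)-like, hepatocyte-like, stellate-like, Kupffer-like, T-like and B-like. The names were rebuilt from markers. All 12 LSEC markers were detected in the LSEC-like class, at a summed 26952 CPM (UMIs per 1000000 UMIs of the class) in IDD+HID, 25277 in IDD+HTF and 19813 in IDD. All 12 hepatocyte markers were detected in the hepatocyte-like class, at 67555, 53784 and 55463 CPM.

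Mt1 was most abundant in LSEC-like cells in every library among the 6 classes, and there it was higher in both iron-treated mice than in the IDD mouse. In the 1236 LSEC-like cells of IDD+HID it reached 2049 CPM from 25424 UMIs. In the 811 cells of IDD+HTF it was 883 CPM from 5001 UMIs, and in the 353 cells of IDD it was 484 CPM from 670 UMIs. The level was thus highest after the iron-rich diet, intermediate after holo-transferrin and lowest on the iron-deficient diet alone. IDD+HID stood 4.24-fold above IDD (95% interval 3.92 to 4.58) and IDD+HTF 1.83-fold above IDD (1.68 to 1.98), and the 2 treated libraries differed 2.32-fold (2.25 to 2.39). These and all later intervals are exact and cover counting error only; UMIs of 1 library say nothing of the spread between mice. Signs of RNA quality had the same order of libraries in this class: the median mitochondrial share was 3.79%, 4.55% and 7.27% in IDD+HID, IDD+HTF and IDD, and ribosomal RNA and repeat features took 4.54%, 6.63% and 9.52% of UMIs. Their part in the Mt1 level was not tested.

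**Figure D1:**
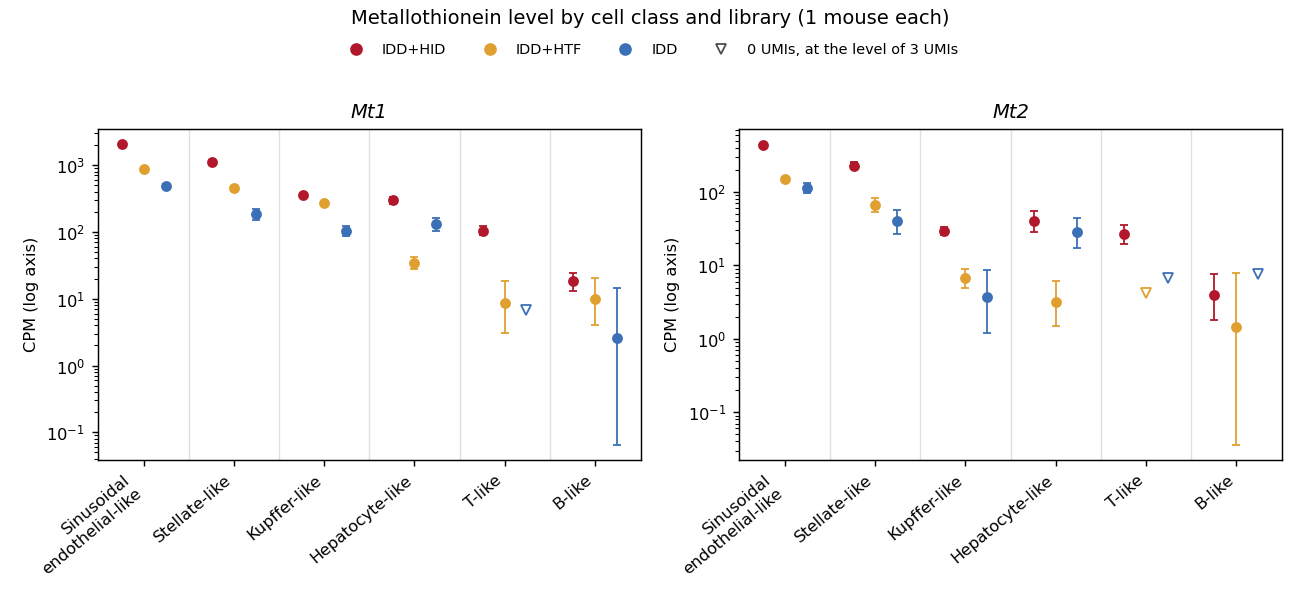
CPM of Mt1 and Mt2 (log axis) in the 6 compared cell classes, with points for IDD+HID, IDD+HTF and IDD from left to right and bars for the exact 95% Poisson interval of counting. LSEC-like cells had the highest Mt1 in all 3 libraries, at 2049, 883 and 484 CPM, while the hepatocyte-like class stood at 296, 34.7 and 130 CPM.

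Mt2, whose protein is nearly interchangeable with that of Mt1, followed it in LSEC-like cells. It was counted at 440 CPM in IDD+HID (5463 UMIs), 152 CPM in IDD+HTF (862 UMIs) and 113 in IDD (157 UMIs). IDD+HID was 3.88-fold above IDD (3.31 to 4.58), a ratio whose interval overlaps that of Mt1. IDD+HTF was 1.34-fold above IDD (1.13 to 1.60), below the 1.5-fold used here as the size at which a gene counts as higher or lower.

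The higher LSEC level was spread over most cells and did not come from a few. Mt1 had at least 1 UMI in 96.7% of LSEC-like cells of IDD+HID, 87.3% of IDD+HTF and 56.7% of IDD, at median depths of 9968, 6231 and 3418 UMIs. With each cell thinned to 1000 UMIs, the shares were 72.5%, 49.5% and 28.0%. In B-like cells, the class with the lowest Mt1 in IDD+HID, the shares were 5.19%, 0.556% and 1.10% at median depths of 4557, 3600.5 and 4041 UMIs, and 1.52%, 0.317% and 0.246% after thinning, so the LSEC shares lay far above that background. The median LSEC-like cell had 1520 CPM of Mt1 in IDD+HID, with quartiles of 788 and 2708, and 643 CPM in IDD+HTF, with quartiles of 304 and 1158. In IDD the median was 218 CPM and the quartiles were 0 and 593. Cells above 4000 CPM made up 12.4% of IDD+HID, 0.617% of IDD+HTF and 0.567% of IDD. Without the cell that held the most Mt1 UMIs in each library, the class ratios were 4.41-fold for IDD+HID and 1.85-fold for IDD+HTF over IDD.

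**Figure D2:**
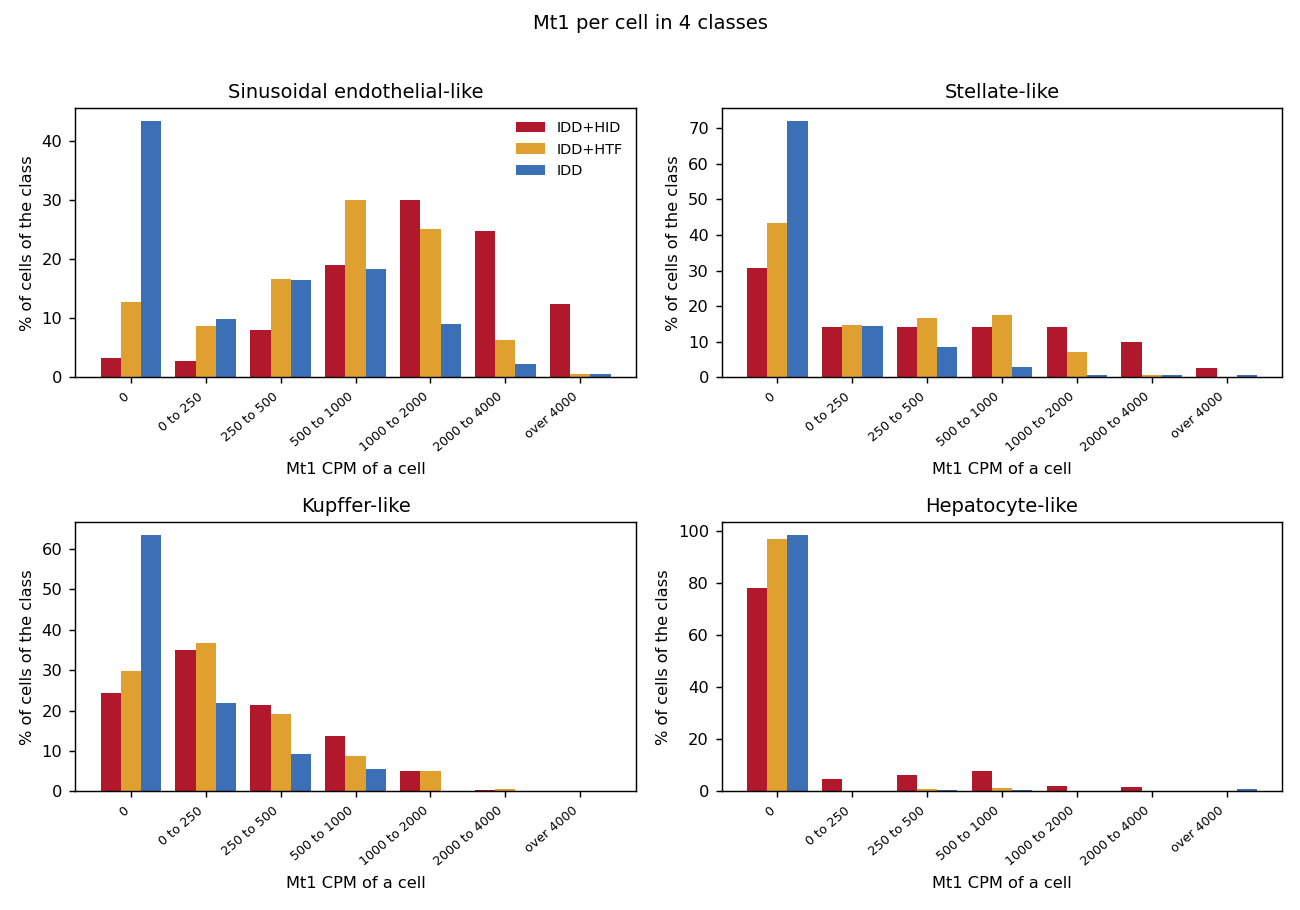
Share of cells (%) in bins of each cell's own Mt1 CPM, for the LSEC-like, hepatocyte-like, stellate-like and Kupffer-like classes, with bars for IDD+HID, IDD+HTF and IDD. In LSEC-like cells the whole distribution was higher in IDD+HID, where 3.32% of cells had no Mt1 UMI against 43.3% in IDD; most hepatocyte-like cells of every library had none.

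The clusters 0, 4 and 6 made up the LSEC-like class, and their mix differed between libraries. Cluster 0 held 414, 292 and 235 cells of IDD+HID, IDD+HTF and IDD, cluster 4 held 705, 455 and 87, and cluster 6 held 117, 64 and 31. Mt1 had the same order of libraries in each. In cluster 0 it was 1732, 750 and 393 CPM, in cluster 4 it was 2203, 963 and 724 CPM, and in cluster 6 it was 1722, 741 and 212 CPM. Cluster 4, which held most of the IDD+HID and IDD+HTF cells, had the highest Mt1 in every library. The ratio of IDD+HID to IDD was 4.41 (3.96 to 4.92) in cluster 0, 3.04 (2.72 to 3.42) in cluster 4 and 8.14 (4.89 to 14.6) in cluster 6, where the IDD value rests on 15 UMIs. Weighting the clusters as they stood in IDD gave 1874 CPM in IDD+HID, 814 in IDD+HTF and 484 in IDD. Mt2 in cluster 0 was 1.02-fold IDD in IDD+HTF, so its small class ratio for holo-transferrin was not seen there.

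**Figure D3:**
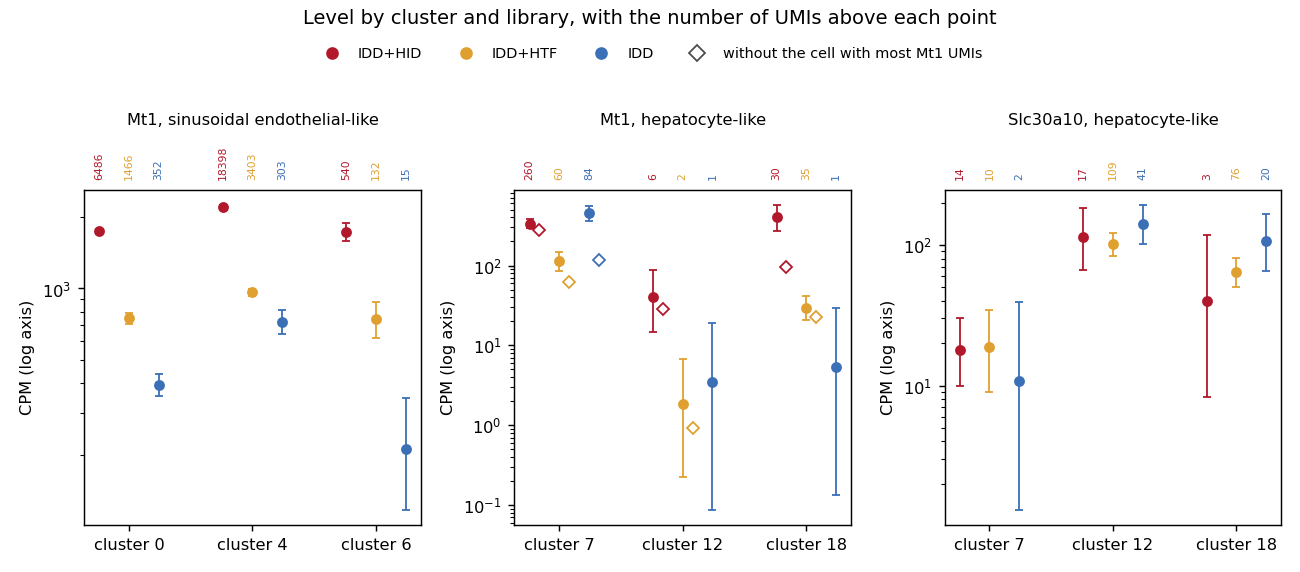
CPM (log axis) by cluster of Mt1 in LSEC-like clusters 0, 4 and 6 and of Mt1 and Slc30a10 in hepatocyte-like clusters 7, 12 and 18, for IDD+HID, IDD+HTF and IDD from left to right, with exact 95% Poisson intervals, UMIs printed above, and open diamonds for Mt1 without the cell with most UMIs. Mt1 was highest in IDD+HID in all 3 LSEC-like clusters, whereas in hepatocyte-like cluster 7 the IDD point, at 454 CPM from 84 UMIs, lay above the IDD+HID point at 335 CPM.

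Markers of other cells were also counted in LSEC-like cells. Hepatocyte markers summed to 1410 CPM in LSEC-like cells of IDD+HID, 1274 CPM of IDD+HTF and 1023 CPM of IDD, with 12 of 12 detected. Stellate markers summed to 698, 756 and 567 CPM and Kupffer markers to 593, 378 and 217 CPM. When the profile of the near-empty droplets was scaled to account for all Alb in the LSEC-like class, it brought 23.6, 10.9 and 7.00 CPM of Mt1.

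Among the 6 members, 4 had at least 50 UMIs over both libraries in LSEC-like cells and were taken as measured: Mt1, Mt2, Slc30a1 and Slc39a1. For IDD+HID over IDD, 3 of these 4 were at least 1.5-fold higher, where 13.2% of all 12371 measured genes were, and 0 were at least 1.5-fold lower, where 20.4% of all genes were. For IDD+HTF over IDD, 1 of 4 (Mt1) was higher against 9.11% of 10668 genes, and 0 were lower against 10.6%. Since the members were picked on these levels, nothing is read from the counts. The median log2 ratio of the 4 members was 1.34 in IDD+HID and 0.31 in IDD+HTF, beside −0.021 and 0.011 for all measured genes. Under TMM scaling (a factor from the bulk of genes in place of the class total), the median over all genes moved to 0.26 in IDD+HID and 0.16 in IDD+HTF. Of all genes past 1.5-fold, the share that was higher then moved to 68.6%, against 39.2% with class totals, in IDD+HID, and to 69.4%, against 46.3%, in IDD+HTF.

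In hepatocyte-like cells metallothionein RNA was far scarcer and very uneven from cell to cell. Mt1 stood at 296 CPM in IDD+HID, 34.7 CPM in IDD+HTF and 130 in IDD. These levels came from 296, 97 and 86 UMIs, found in 57 of 261, 32 of 1032 and 4 of 244 cells. As class sums, IDD+HID was 2.28-fold above IDD (1.79 to 2.93) and IDD+HTF was 0.267-fold of IDD (0.198 to 0.361), which is opposite to the LSEC-like ratio of 1.83 for the same pair of mice. The IDD value rested on a pair of cells: 63 of its 86 UMIs were in 1 cell of 4725 UMIs, and 21 were in another. Without the cell with the most Mt1 UMIs in each library, the levels were 254, 25.1 and 35.0 CPM, IDD+HID was 7.26-fold above IDD (4.73 to 11.7), and IDD+HTF was 0.717-fold of IDD with an interval of 0.442 to 1.20 that includes 1. The share of cells with an Mt1 UMI ordered the libraries differently from the sums, at 21.8%, 3.10% and 1.64%, at median depths of 2249, 2155 and 2116 UMIs. Thinned to 1000 UMIs per cell, the shares were 10.6%, 1.66% and 1.27%; in B-like cells they were 1.52%, 0.317% and 0.246%.

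Mt2 in hepatocyte-like cells showed the same dependence on single cells. It had 40 UMIs in 14 cells of IDD+HID, 9 UMIs in 4 cells of IDD+HTF and 19 UMIs in 2 cells of IDD. In IDD, 16 of the 19 UMIs lay in 1 cell, the cell of 4725 UMIs described above. The ratio of IDD+HID to IDD was 1.39 (0.788 to 2.55), an interval that includes 1, and that of IDD+HTF to IDD was 0.112 (0.0447 to 0.260) from 28 UMIs in all, below the minimum of 50.

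The hepatocyte-like libraries also differed in ways that touch every gene. Their cells came from different clusters: cluster 7 held 176, 197 and 58 cells of IDD+HID, IDD+HTF and IDD, cluster 12 held 53, 313 and 92, and cluster 18 held 32, 522 and 94. Ribosomal RNA and repeat features took 8.17%, 29.8% and 25.3% of hepatocyte-like UMIs, and the median mitochondrial share was 8.15%, 6.53% and 9.15%. LSEC markers summed to 1770, 2740 and 1077 CPM in this class, with 12, 12 and 6 of 12 detected and Stab2, Stab1, Oit3, Lyve1, Kdr and Bmp2 at 0 in IDD, and Kupffer markers to 542, 196 and 71.0 CPM. When near-empty droplets were scaled to account for all Stab2 and Clec4g there, they brought 146, 19.9 and 2.23 CPM of Mt1. This scaling counts 38.7%, 11.7% and 2.998% of the class's UMIs as RNA from outside cells. Scaling to Alb in other classes of IDD+HID gave at most 10.9%, in B-like cells. In IDD the scaling rests on Clec4g alone, at 6.04 CPM. Whether it gives the right amount of such RNA was not tested. Scaled instead by the whole LSEC marker list, relative to LSEC-like cells, LSEC RNA would bring 135, 95.7 and 26.3 CPM. In IDD+HTF this is more than was counted. That estimate takes every count of the list as LSEC RNA, though Stab2 and Clec4g made up only 217, 50.8 and 6.04 CPM of the sums. It therefore cannot show how much of the counted Mt1 was LSEC RNA. The part of these differences in the metallothionein values was not tested beyond these estimates.

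Within cluster 7, the cluster with the least ribosomal RNA, Mt1 was 335 CPM in IDD+HID, 113 CPM in IDD+HTF and 454 in IDD. IDD+HID was there 0.738-fold of IDD (0.575 to 0.955), the reverse of the class ratio. The IDD level of cluster 7 lay in 2 of 58 cells, while IDD+HID had Mt1 in 50 of 176 cells and IDD+HTF in 12 of 197. Without each library's top cell the cluster 7 levels were 281, 62.6 and 116 CPM, and IDD+HID was then above IDD. In clusters 12 and 18, IDD had 1 Mt1 UMI each; cluster 12 gave 6 and 2 UMIs in IDD+HID and IDD+HTF, and cluster 18 gave 30 and 35, with 24 of the 30 in 1 cell.

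For IDD+HID over IDD in hepatocyte-like cells, 2 of 4 measured members were higher by 1.5-fold or more and 1 lower, beside 65% and 11.9% of all 2859 measured genes. For IDD+HTF over IDD, 1 of 4 was higher and 1 was lower, beside 18.9% and 14.2% of 3575 genes. The members' share was thus no larger than that of all genes for the higher direction in IDD+HID. The median log2 ratio was 0.83 for the members and 0.99 for all genes in IDD+HID, and −0.25 and −0.022 in IDD+HTF. TMM scaling moved the all-gene median to 0.13 in IDD+HID and 0.080 in IDD+HTF. The share of genes past 1.5-fold that was higher moved to 49.9%, against 84.5% with class totals, in IDD+HID, and to 67.9%, against 57.1%, in IDD+HTF. As a class sum, the Mt1 log2 ratio of 1.19 in IDD+HID lay near the all-gene median of 0.99. That ratio depends on the 1 IDD cell that held 63 of the 86 Mt1 UMIs. Without each library's top cell it was 2.86, above that median.

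In stellate-like cells, the vitamin A-storing pericytes of the sinusoid, both metallothioneins had the LSEC order of libraries, and so did the LSEC markers counted in this class. Mt1 was 1122 CPM in IDD+HID (1823 UMIs), 448 CPM in IDD+HTF (615 UMIs) and 182 in IDD (128 UMIs). IDD+HID was 6.15-fold above IDD (5.14 to 7.42) and IDD+HTF 2.46-fold (2.03 to 2.99). After thinning, 37.0%, 22.4% and 8.65% of cells had an Mt1 UMI. The IDD level again leaned on 1 cell, without which it was 149 CPM and the ratios were 7.37 and 2.88. Mt2 was 228, 67.0 and 39.9 CPM, which is 5.72-fold (3.90 to 8.73) and 1.68-fold (1.09 to 2.66) above IDD. All of these cells lay in cluster 16.

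The 12 LSEC markers, all detected, summed to 12059 CPM in stellate-like cells of IDD+HID, 10888 of IDD+HTF and 4007 of IDD, or 44.7%, 43.1% and 20.2% of their level in LSEC-like cells. At those shares LSEC RNA would bring 917, 380 and 97.8 CPM of Mt1 and 197, 65.5 and 22.9 CPM of Mt2, most of what was counted. The ratios were therefore taken again, a choice made after seeing the data, in the 74, 79 and 112 stellate-like cells with under 0.5% of their UMIs in the LSEC list, where those markers summed to 703, 1110 and 1020 CPM. Mt1 was there 395 CPM in IDD+HID, 179 in IDD+HTF and 147 in IDD. IDD+HID was 2.69-fold above IDD (2.06 to 3.56), and IDD+HTF was 1.22-fold of IDD, with an interval of 0.892 to 1.68 that includes 1. Mt2 had 34, 9 and 12 UMIs in these cells, too few to count as measured.

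In Kupffer-like cells, the resident macrophages that recycle iron from red cells, Mt1 was also higher in both treated mice. It was 354 CPM in IDD+HID, 270 CPM in IDD+HTF and 104 in IDD. The ratios were 3.40 (2.87 to 4.06) and 2.59 (2.18 to 3.10) over IDD, and the treated libraries differed 1.31-fold. The median depth of this class was 14183, 13306.5 and 4787 UMIs, and thinned shares of cells with Mt1 were 23.3%, 19.5% and 8.77%. Mt2 was scarce, at 29.6 CPM in IDD+HID, 6.69 CPM in IDD+HTF and 3.72 in IDD, the last from 5 UMIs, and IDD+HID was 7.94-fold above IDD (3.36 to 24.7). LSEC markers moved with these values, at 1939, 1561 and 748 CPM in Kupffer-like cells, and stellate markers stood at 272, 249 and 138 CPM, with 12 of 12 detected in each list. At the ratio to LSEC-like cells, LSEC RNA would bring 147, 54.5 and 18.3 CPM of Mt1. For Mt2 it would bring 31.7, 9.40 and 4.28 CPM, the whole counted level. These estimates take every count of the list as LSEC RNA. In the 610, 471 and 182 Kupffer-like cells with under 0.5% of UMIs in the LSEC list, Mt1 was 270 CPM in IDD+HID, 253 in IDD+HTF and 104 in IDD, ratios over IDD of 2.58 (2.17 to 3.08) and 2.42 (2.03 to 2.90). Mt2 there had 41, 25 and 5 UMIs and its ratio of IDD+HID to IDD was 1.38 (0.544 to 4.46). Cluster 1 held most Kupffer-like cells of IDD+HTF and IDD, and clusters 1 and 2 most of those of IDD+HID.

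Lymphocytes held little metallothionein RNA. T-like cells had 190 Mt1 UMIs in IDD+HID (105 CPM), 6 in IDD+HTF (8.49 CPM) and none in IDD. There 0 of 75 cells had a UMI, and 3 counts of the total would be 4%, a limit on cells with a UMI and not on cells that express Mt1. In IDD+HID, 97 of the 190 UMIs lay in 1 cell, as did 39 of 48 Mt2 UMIs, and the 6 UMIs of IDD+HTF were all in 1 cell. Against a floor of 3 UMIs over the class in IDD, T-like Mt1 was at least 15.6-fold higher in IDD+HID, and at least 7.71-fold without that 1 cell. Near-empty droplets scaled to Alb would bring 27.2, 11.1 and 1.82 CPM of Mt1 to T-like cells, in IDD+HTF and IDD more than was counted. LSEC RNA at the ratio of its markers over all T-like cells would bring 65.9, 15.9 and 4.49 CPM. In IDD+HTF and IDD this too is more than was counted. In IDD+HID it is more than the 51.9 CPM left without that 1 cell. How much of the T-like Mt1 was RNA from other cells was not tested. B-like cells had 18.1, 9.99 and 2.58 CPM from 41, 7 and 1 UMIs. Near-empty droplets scaled to Alb would bring 41.0, 12.3 and 6.87 CPM of Mt1 to B-like cells, more than was counted, so the B-like levels are read as background.

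The balance of the metallothioneins differed between classes more than between libraries in LSEC-like cells. LSEC-like cells of IDD+HID had 4.65 Mt1 UMIs per Mt2 UMI (4.52 to 4.79), those of IDD+HTF had 5.80 (5.40 to 6.24), and those of IDD had 4.27 (3.58 to 5.11). Stellate-like cells gave 4.91, 6.68 and 4.57. Kupffer-like cells gave 11.99 (10.6 to 13.6), 40.4 (29.99 to 55.8) and 28 (11.7 to 87.6), so Mt2 was a smaller part of their metallothionein RNA. That Mt2 lay within what LSEC RNA would bring if every count of the LSEC list were LSEC RNA, which was not tested. The near-empty droplets gave 6.04, 5.17 and 4.13. These are ratios of UMIs and depend on how well each transcript is captured. Of the other family members, Mt3 had 1 UMI in T-like cells of IDD+HID and 1 in those of IDD, with none in the other 5 classes, and Mt4 had none in any of the 6.

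Slc30a1, the plasma-membrane zinc exporter, differed in direction between classes for IDD+HID over IDD, a difference that was not tested. In LSEC-like cells it was 65.6 CPM in IDD+HID, 40.1 CPM in IDD+HTF and 39.7 in IDD, from 814, 227 and 55 UMIs. IDD+HID was 1.65-fold above IDD (1.26 to 2.21), and IDD+HTF was 1.01-fold of IDD (0.749 to 1.38). Thinned shares of LSEC-like cells with a UMI were 6.22%, 3.84% and 3.57%. By cluster, the levels were 69.4 and 43.5 CPM in IDD+HID and IDD in cluster 0, and 64.0 and 23.9 CPM in cluster 4, a ratio of 2.68 (1.44 to 5.61). In cluster 6, the smallest, they were 63.8 CPM from 20 UMIs and 84.6 CPM from 6 UMIs. Stellate-like cells gave 42.5, 30.6 and 12.8 CPM from 69, 42 and 9 UMIs, with ratios over IDD of 3.31 (1.65 to 7.55) and 2.39 (1.14 to 5.57). LSEC RNA at the share of its markers there, given above, would bring 29.4, 17.3 and 8.03 CPM, and the stellate-like cells with few LSEC markers had 11, 15 and 2 Slc30a1 UMIs.

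In Kupffer-like cells Slc30a1 was lower in IDD+HID, at 79.9 CPM against 144 CPM in IDD, a ratio of 0.553 (0.472 to 0.652). IDD+HTF stood at 125 CPM, 0.863-fold of IDD (0.737 to 1.01). Cluster 1 alone gave 77.1 CPM in IDD+HID, 129 CPM in IDD+HTF and 125 in IDD, so the ratio of IDD+HID to IDD was 0.614 (0.508 to 0.746) within it and that of IDD+HTF to IDD was 1.02. Part of the IDD class level came from cluster 2, where 7 IDD cells gave 40 UMIs; without the top cell of each library the class ratio of IDD+HID to IDD was 0.591 (0.500 to 0.700). In the Kupffer-like cells with few LSEC markers the ratio was 0.567 (0.482 to 0.668). Hepatocyte-like cells had 17, 61 and 15 Slc30a1 UMIs, or 17.0, 21.8 and 22.7 CPM, and the ratio of IDD+HTF to IDD was 0.963 (0.541 to 1.83).

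**Figure D4:**
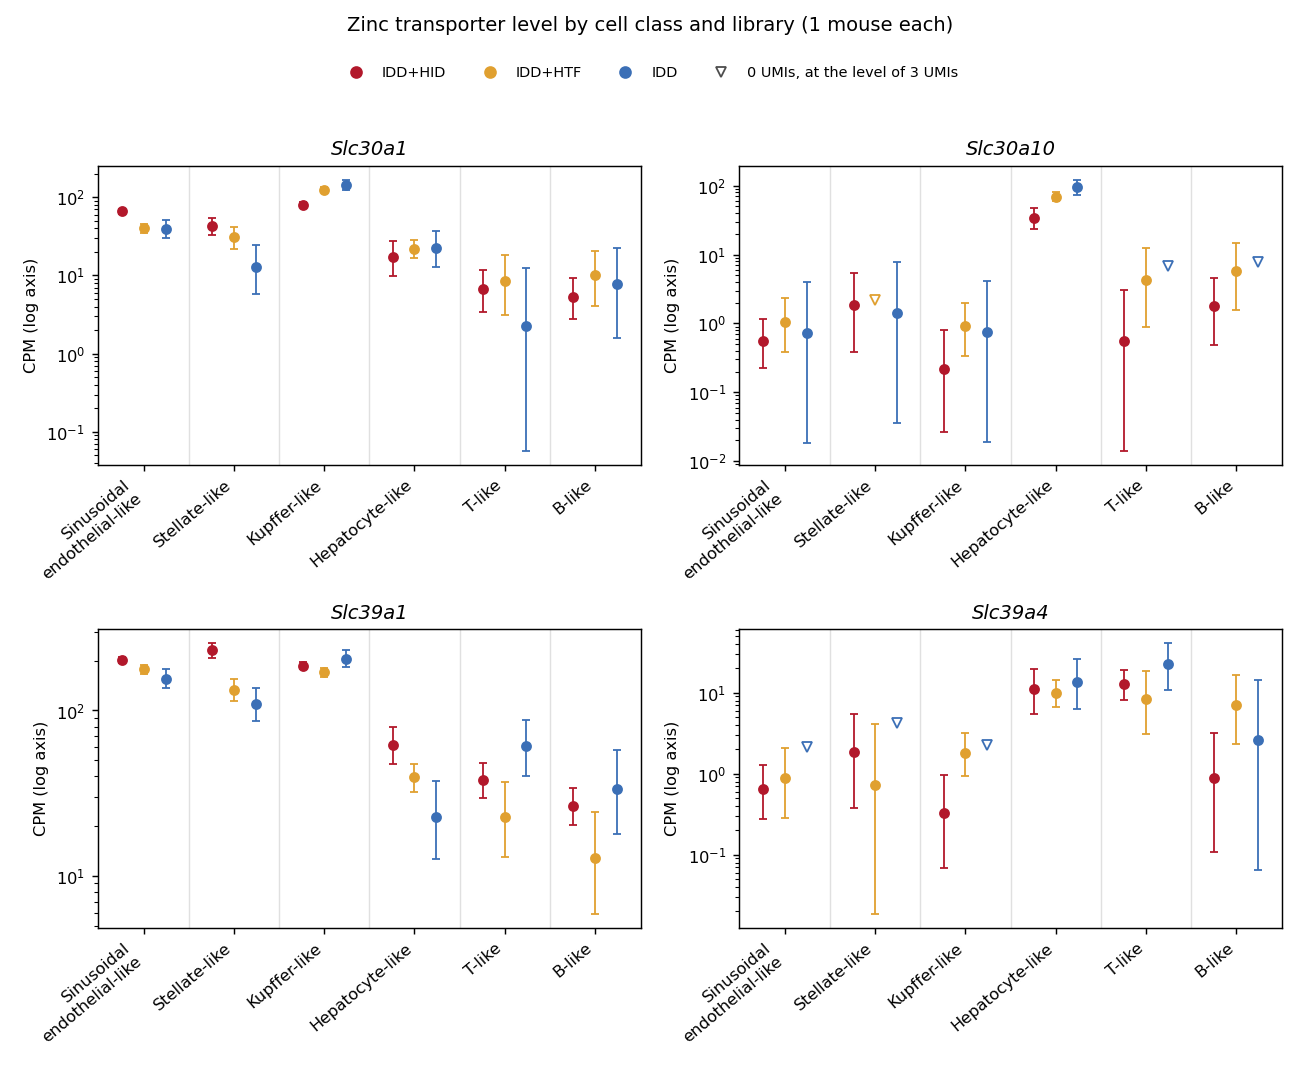
CPM (log axis) of Slc30a1, Slc30a10, Slc39a4 and Slc39a1 in the 6 compared classes, with points for IDD+HID, IDD+HTF and IDD and exact 95% Poisson intervals of counting. Slc30a10 was counted mainly in hepatocyte-like cells, at 34.0, 69.8 and 95.2 CPM, and Slc30a1 in Kupffer-like cells was lowest in IDD+HID, at 79.9 CPM.

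Slc30a10 was a hepatocyte transcript in these libraries. It had 34 UMIs in IDD+HID (34.0 CPM), 195 in IDD+HTF (69.8 CPM) and 63 in IDD (95.2 CPM), in 9.96%, 15.8% and 18.0% of hepatocyte-like cells. LSEC-like cells, although more numerous and deeper, had 7, 6 and 1 UMIs, Kupffer-like cells 2, 6 and 1, and stellate-like cells 3, 0 and 1. As class sums, the hepatocyte ratios over IDD were 0.357 (0.228 to 0.550) for IDD+HID and 0.733 (0.549 to 0.990) for IDD+HTF. The level differed more between clusters than between libraries. Cluster 12 had 115 CPM in IDD+HID, 101 CPM in IDD+HTF and 142 in IDD, cluster 18 had 40.1, 64.2 and 107 CPM, and cluster 7 had 18.0, 18.9 and 10.8 CPM. Cluster 7, with the lowest Slc30a10, held most of the IDD+HID hepatocyte-like cells. Within cluster 12 the ratio of IDD+HID to IDD was 0.808 (0.431 to 1.45). With clusters weighted as in IDD, the levels were 66.5, 67.6 and 95.2 CPM, so both treated libraries then stood equally far below IDD, at log2 ratios of −0.52 and −0.49. Summed pericentral hepatocyte markers were 744, 385 and 292 CPM in cluster 7 and 4144, 419 and 321 CPM in cluster 12.

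Slc39a1, the broadly expressed zinc importer, was counted in all 6 classes. In LSEC-like cells it was 201 CPM in IDD+HID, 177 CPM in IDD+HTF and 156 in IDD, with ratios over IDD of 1.29 (1.12 to 1.49) and 1.14 (0.981 to 1.32). In stellate-like cells it was 231, 133 and 110 CPM, 2.11-fold (1.65 to 2.73) and 1.21-fold (0.926 to 1.61) of IDD; in those with few LSEC markers the ratios were 1.91 (1.37 to 2.67) and 1.026 (0.702 to 1.501). In Kupffer-like cells it was 187, 170 and 205 CPM, and the ratio of IDD+HTF to IDD was 0.828 (0.726 to 0.949). Its levels in these 3 classes ran from 187 to 231 CPM in IDD+HID, from 133 to 177 CPM in IDD+HTF and from 110 to 205 CPM in IDD. Stellate-like cells had the highest of the 3 in IDD+HID and the lowest in IDD. T-like cells had 38.1, 22.6 and 60.6 CPM and B-like cells 26.5, 12.8 and 33.5 CPM, in both of which IDD was the highest library.

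In hepatocyte-like cells Slc39a1 was 62.0 CPM in IDD+HID, 39.4 CPM in IDD+HTF and 22.7 in IDD, from 62, 110 and 15 UMIs. The ratios over IDD were 2.74 (1.54 to 5.18) and 1.74 (1.01 to 3.21). The log2 ratio of 1.45 in IDD+HID stood beside a median of 0.99 for all measured genes, and was 0.59 under TMM scaling. In IDD+HTF, 0.80 stood beside −0.022 and was 0.90 under TMM scaling. The order was the same with clusters weighted as in IDD, at 72.2, 39.3 and 22.7 CPM, and in clusters 12 and 18 taken alone, at 94.3, 56.5 and 27.6 CPM and at 53.4, 33.0 and 16.0 CPM. In cluster 7 the levels were 56.6, 18.9 and 21.6 CPM, with IDD+HTF and IDD resting on 10 and 4 UMIs. Near-empty droplets scaled to Stab2 and Clec4g would bring 29.8, 7.56 and 0.708 CPM of Slc39a1, with the limits of that scaling given above.

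Slc39a4, the importer mutated in human acrodermatitis enteropathica, was at the limit of detection in most classes. Hepatocyte-like cells had 11, 28 and 9 UMIs in IDD+HID, IDD+HTF and IDD, or 11.0, 10.0 and 13.6 CPM. LSEC-like cells had 8, 5 and 0 UMIs, Kupffer-like cells 3, 12 and 0, and stellate-like cells 3, 1 and 0. T-like cells had 23, 6 and 10 UMIs, which is 12.7, 8.49 and 22.4 CPM. B-like cells had 2, 5 and 1 UMIs. No difference between libraries was detectable at this depth in LSEC-like or stellate-like cells.

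**Figure D5:**
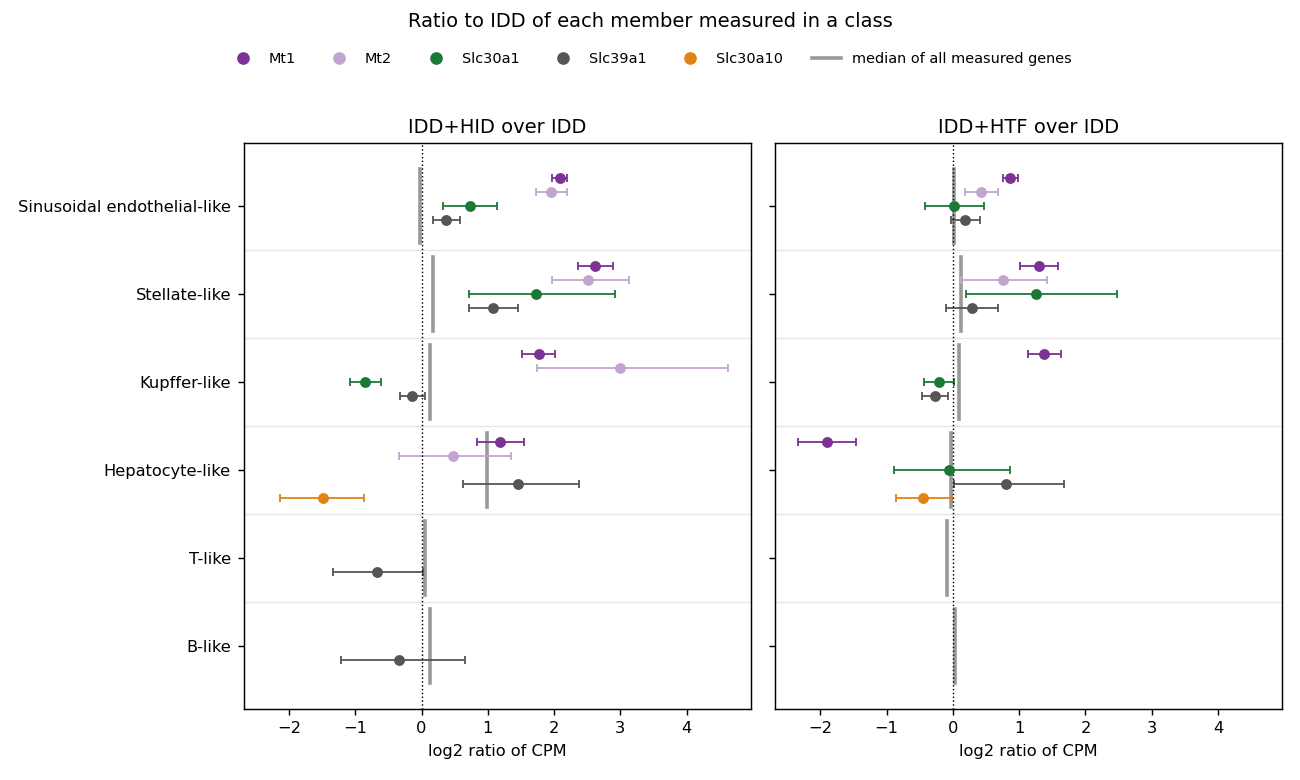
Log2 ratios of class CPM over IDD for Mt1, Mt2, Slc30a1, Slc39a1 and Slc30a10 in the compared classes, for IDD+HID and IDD+HTF, with exact 95% intervals of counting error. A point is drawn only where the gene was measured and counted in both libraries, and Slc39a4 is not drawn. Grey lines mark the median of all measured genes. Mt1 lay above 0 in LSEC-like, stellate-like and Kupffer-like cells in both comparisons, and in hepatocyte-like cells it lay at 1.19 in IDD+HID and at −1.90 in IDD+HTF.

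The 20 other zinc transporters of the Slc30 and Slc39 families were counted in the same way. In LSEC-like cells 14 were measured for IDD+HID over IDD, of which 1 was higher and 2 were lower, beside 13.2% and 20.4% of all genes. The higher one was Slc39a8, an importer of zinc, manganese and iron, at 267 CPM in IDD+HID against 154 CPM in IDD (log2 0.80). The lower ones were Slc39a2, at 71.5 against 147 CPM (log2 −1.04), and Slc39a13, an importer of intracellular membranes, at 17.3 against 32.5 CPM (log2 −0.91). For IDD+HTF over IDD 13 were measured and 0 passed in either direction, beside 9.11% and 10.6% of all genes, with Slc39a9 at 43.6 against 57.8 CPM. In hepatocyte-like cells, 2 were measured for IDD+HID over IDD and both were lower, beside 11.9% of all genes: Slc39a14, the importer of non-transferrin-bound iron, manganese and zinc into hepatocytes, at 43.0 against 71.0 CPM (log2 −0.72), and Slc39a2 at 93.0 against 144 CPM (log2 −0.63). For IDD+HTF over IDD 5 were measured. Of these 1 was higher, Slc30a9 at 28.3 against 9.07 CPM (log2 1.64), and 0 were lower, beside 18.9% and 14.2% of all genes. Slc39a14 stood at 99.9 against 71.0 CPM (log2 0.49). In hepatocyte-like cells Slc39a14 and Slc39a2 had the library order of that class's ribosomal RNA and repeat share, 8.17%, 29.8% and 25.3% in IDD+HID, IDD+HTF and IDD. The mix of clusters also differed there, as given above. Slc39a2 followed this share in LSEC-like cells too, at 4.54%, 6.63% and 9.52%. The part of these in the values was not tested.

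Genes of the pathways known to act on metallothioneins were counted beside them. In LSEC-like cells of IDD+HID over IDD, 9 of 12 measured NRF2 targets, genes of the oxidative stress response, were at least 1.5-fold higher and 1 lower, with a median log2 ratio of 1.34. Hmox1, which breaks down heme, was at 169 against 31.8 CPM (log2 2.41), and Ftl1, the ferritin light chain, at 2858 against 822 CPM (log2 1.80). Immediate early genes, which respond within minutes to stress including tissue digestion, were higher for 11 of 12 and lower for 0, with Fosb at 874 against 112 CPM (log2 2.96). Metal sensor and copper genes gave 3 higher and 0 lower of 11, with the copper importer Slc31a1 at 55.1 against 31.0 CPM (log2 0.83). Heat shock genes gave 4 higher and 1 lower of 10, IL-6 and acute phase genes 3 higher and 1 lower of 11, and glucocorticoid targets 2 higher and 0 lower of 9. The IL-6 list's Socs3, an inhibitor of cytokine signalling, was at 536 against 180 CPM (log2 1.58). Over all genes, 13.2% were higher and 20.4% lower, as given above, and the part of these pathways in the Mt1 level was not tested.

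In LSEC-like cells of IDD+HTF over IDD, 9.11% of all genes were higher and 10.6% lower with class totals. The NRF2 targets gave 2 higher and 1 lower of 11, with a median of 0.19, Hmox1 at 53.8 against 31.8 CPM and Ftl1 at 1263 against 822 CPM. IL-6 and acute phase genes gave 7 higher and 0 lower of 11, with the transcription factor Cebpd at 240 against 116 CPM (log2 1.05). Heat shock genes gave 6 higher and 0 lower of 10, immediate early genes 8 and 0 of 12, glucocorticoid targets 3 and 0 of 10, and metal sensor and copper genes 3 and 0 of 11, Slc31a1 among them at 59.0 against 31.0 CPM (log2 0.93). Endothelial zonation genes gave 1 higher and 1 lower of 8 pericentral and 1 and 3 of 8 periportal in IDD+HID, and 0 and 2 of 8 pericentral and 0 and 1 of 8 periportal in IDD+HTF.

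In hepatocyte-like cells of IDD+HID over IDD, where 65% of all genes were higher and 11.9% lower, 7 of 7 NRF2 targets, 6 of 6 heat shock genes and 9 of 10 immediate early genes were higher, with 0 lower in each. Metal sensor and copper genes gave 4 higher and 1 lower of 7: Ccs, the copper chaperone of superoxide dismutase, was at 285 against 65.0 CPM (log2 2.13) and Cp, ceruloplasmin, at 470 against 846 CPM (log2 −0.85). IL-6 and acute phase genes went the other way, with 1 higher and 3 lower of 9 and a median of −0.55. Glucocorticoid targets gave 4 and 0 of 6, pericentral genes 3 and 0 of 7, and periportal genes 4 and 1 of 9. For IDD+HTF over IDD, beside 18.9% higher and 14.2% lower over all genes, the counts were 0 and 0 of 8 for metal sensor and copper genes, 0 and 0 of 7 for NRF2 targets, 5 and 0 of 12 for IL-6 and acute phase genes, 2 and 0 of 6 for heat shock genes, 3 and 0 of 8 for immediate early genes, 2 and 2 of 6 for glucocorticoid targets, 3 and 2 of 7 for pericentral genes and 2 and 1 of 10 for periportal genes.

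The genes whose levels were most like those of Mt1 were ranked by Pearson's r of log2(CPM + 20) over 18 units, the 6 classes in 3 libraries, among 7204 genes. The units share libraries, so r is a description. Ifitm2, an interferon-induced membrane protein, had 0.964, Plpp3, a lipid phosphatase, 0.947, Gng12 0.937, Gm4951 0.932 and Tceal8 0.928; Mt2 came at rank 21 with 0.911. Plpp3 was at 3151, 1995 and 1766 CPM in LSEC-like cells of IDD+HID, IDD+HTF and IDD. With each class's mean removed, so that only differences between libraries remain, Wbp11 had 0.953, Camk1 0.933, Ddrgk1 0.933, Mt2 0.926 and the kinase Pim3 0.918. Mt2 was thus among the 5 genes most like Mt1 on the second measure and not on the first.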

How the data were processed

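Single-cell 3' RNA-seq counts of 3 mouse liver libraries, 1 mouse each, were analysed. The authors deposited raw UMI counts per gene and barcode, all barcodes kept, on GRCm38, and the submitters' processing notes name Seurat 4; for aligner and counter, names were not given in the sources used here. Cells with at least 1000 UMIs, 300 genes and at most 20% mitochondrial UMIs were kept. Scrublet in scanpy 1.11.5 called 0.197%, 0.156% and 1.72% of cells doublets in IDD+HID, IDD+HTF and IDD, so it did not work in 2 libraries and doublets may remain. Cells were clustered together (Leiden, igraph 0.11.9, resolution 1, 2000 variable genes without the members and listed genes, 30 components, 15 neighbours) and named from marker lists. Counts were summed per class and library and given as CPM; ratios have exact conditional intervals (scipy 1.17.1). Measured genes had 50 or more UMIs in a pair of libraries, and 1.5-fold was the size for higher or lower. Genes named from a list are among its 4 with the largest ratio in a comparison, and the 5 most like Mt1 were named. LSEC RNA in another class was estimated from the ratio of summed LSEC markers there to those in LSEC-like cells. Every count of the list was taken as LSEC RNA. Alternatives used edgeR 4.0.16 (TMM) and DESeq2 1.42.0 (median of ratios) factors. No test was run, since each group is 1 mouse. Only the ratios and their intervals were checked on simulated counts, which held no spread between cells or mice. The members and the gene lists were chosen with earlier results of these data known.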

Additional observations from a re-analysis of the deposited data

Results flagged for a closer look

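For 3 results the classes differed in direction, and the difference between classes was not tested. The log2 ratio of Slc30a1 in IDD+HID over IDD was 0.72 in LSEC-like and 1.73 in stellate-like cells, and −0.85 in Kupffer-like cells; LSEC markers in the stellate-like class had the same order of libraries as its Slc30a1. The log2 ratio of Mt1 in IDD+HTF over IDD was 1.38 in Kupffer-like, 0.87 in LSEC-like and 1.30 in stellate-like cells, and −1.90 in hepatocyte-like cells, where 63 of the 86 IDD UMIs lay in 1 cell and the value without each library's top cell was −0.48. In stellate-like cells with few LSEC markers the Mt1 value was 0.29. The log2 ratio of Slc39a1 in IDD+HTF over IDD was 0.80 in hepatocyte-like cells and −0.27 in Kupffer-like cells.

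Metallothionein RNA also differed in the droplets of at most 100 UMIs, which no class value uses. Mt1 was there at 376 CPM in IDD+HID, 170 CPM in IDD+HTF and 74.5 in IDD, and Mt2 at 62.3, 33.0 and 18.0 CPM. The log2 ratios over IDD were 2.34 for Mt1 and 1.79 for Mt2 in IDD+HID, and 1.19 and 0.87 in IDD+HTF.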

How the results depend on the processing

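No paired analysis was possible because each group is 1 mouse and 1 library. For LSEC-like Mt1 in IDD+HID over IDD, the log2 ratio of 2.08 was 2.37 under TMM and under median-of-ratios scaling, 2.26 as a mean over cells, 1.61 within cluster 4, 3.02 within cluster 6 and 1.95 with clusters weighted as in IDD; in IDD+HTF, 0.87 became 1.02, 1.05, 1.01, 0.41, 1.81 and 0.75. For LSEC-like Mt2 in IDD+HID, 1.96 became 2.24 and 2.25 under the scalings, 1.59 and 1.73 within clusters 0 and 4, and 1.69 weighted; in IDD+HTF, 0.42 became 0.025 within cluster 0 and 0.16 weighted. For hepatocyte-like Mt1 in IDD+HID, 1.19 became 0.32 and 0.33 under the scalings, 0.83 with mitochondrial, ribosomal RNA and repeat UMIs left out of the total, 1.76 with up to 40% mitochondrial UMIs allowed, 0.35 as a mean over cells, 0.79 weighted, −0.44 (reversed) within cluster 7 and 2.86 without the top cells; in IDD+HTF, −1.90 became −1.21 at 40%, −2.98 with free RNA subtracted and −0.48 without the top cells. Hepatocyte-like Mt2 in IDD+HID, 0.48, became −0.39 and −0.38 under the scalings, −0.16 with free RNA subtracted, −0.011 as a mean over cells and −1.27 within cluster 7. Direction was kept in 97 of 103 alternatives for log2 ratios, all of them recalculations of the same 3 libraries. The rest all lay in hepatocyte-like cells of IDD+HID over IDD. They were Mt1 within cluster 7 and the alternatives just listed for Mt2. The cause of these shifts was not tested. In hepatocyte-like cells, free RNA was subtracted with the Stab2 and Clec4g scaling, so its limits given above hold for those values too.

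Among the 24 zinc transporters, counts past 1.5-fold in LSEC-like cells were 2 higher and 2 lower in IDD+HID, against 0 and 1 at 2-fold and 6 higher under TMM; in IDD+HTF, 0 lower became 1 without the minimum of UMIs. In hepatocyte-like cells, 1 higher and 3 lower in IDD+HID became 7 and 6 without the minimum, with 1 lower at 2-fold; in IDD+HTF, 2 higher and 0 lower became 6 and 2, with 1 higher at 2-fold. Leaving out top cells, the IDD weighting and the restriction to stellate-like and Kupffer-like cells with few LSEC markers were added after the data were seen. No value could be given with at most 3 UMIs, as for Mt2 in cluster 6 and Mt1 and Mt2 in clusters 12 and 18, nor for hepatocyte-like Mt2 without the top cells or, in IDD+HTF, with free RNA subtracted. Hepatocyte-like Mt1 and Mt2 in IDD rest on 86 and 19 UMIs.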

Other observations

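Classes with under 50 cells in a library were left out of the comparisons above. Vascular endothelial-like cells (69, 46 and 21 cells of IDD+HID, IDD+HTF and IDD) had Mt1 at 710, 236 and 42.9 CPM, the last from 6 UMIs, so the library order was that of the LSEC-like class. Conventional dendritic-like cells gave 185, 86.8 and 26.6 CPM. Monocyte or macrophage-like cells gave 238, 522 and 222 CPM, with IDD+HTF the highest. Mesothelial-like cells had 713 CPM in IDD+HID and 107 CPM in IDD+HTF, and 891 in IDD, where all 41 UMIs lay in 1 of 3 cells. The 3 unnamed clusters together gave 1701, 1199 and 151 CPM, but they hold unlike cells in different mixes. Cluster 20 held 28, 138 and 77 cells of IDD+HID, IDD+HTF and IDD, cluster 23 held 4, 6 and 0, and cluster 24 held 0, 7 and 1. Adding cluster 20 to the LSEC-like class moved its Mt1 in IDD+HTF from 883 to 843 CPM. The pooled order of libraries is therefore not that of any 1 cell type. Slc39a4 stood at 78.0 CPM in cholangiocyte-like cells of IDD+HID (35 UMIs in 14 cells), at 47.1 in those of IDD+HTF and at 15.8 in those of IDD, with 4 UMIs and 1 UMI in the last 2 libraries.

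Slc39a2 was named after its values were seen. It was lower in IDD+HID than in IDD in all 6 compared classes: 71.5, 113 and 147 CPM in LSEC-like cells of IDD+HID, IDD+HTF and IDD, 94.7, 166 and 201 CPM in Kupffer-like cells, 97.9, 247 and 301 CPM in stellate-like cells, 93.0, 189 and 144 CPM in hepatocyte-like cells, 180, 611 and 346 CPM in T-like cells, and 114, 208 and 191 CPM in B-like cells. The share of ribosomal RNA and repeat features had the same order of libraries as Slc39a2 in each of these 6 classes. It was 4.54%, 6.63% and 9.52% in LSEC-like cells of IDD+HID, IDD+HTF and IDD. In hepatocyte-like cells it was 8.17%, 29.8% and 25.3%, and in T-like cells 4.07%, 6.12% and 4.41%. Its part in the Slc39a2 level was not tested. Slc39a8 was higher in IDD+HID than in IDD in stellate-like cells too, at 129, 78.6 and 18.5 CPM, and in Kupffer-like cells, at 23.2, 16.3 and 6.70 CPM. LSEC RNA at the ratio of its markers would bring 119, 84.0 and 31.1 CPM of Slc39a8 to stellate-like and 19.2, 12.05 and 5.81 CPM to Kupffer-like cells, and stellate-like cells with few LSEC markers had 5, 1 and 5 UMIs.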
